A study of Homo sapiens with 2 samples.

Results

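The genes described here are the nuclear-encoded subunits of the mitochondrial oxidative phosphorylation complexes, together with the assembly factors of complex II. They were chosen by gene symbol in the deposited isoform table (NDUFA, NDUFB, NDUFC, NDUFS and NDUFV genes with a number, SDHA to SDHD, SDHAF1 to SDHAF4, UQCR genes, CYC1, the numbered COX subunit genes from COX4 to COX8, and ATP5 genes). The rule uses names and no measured values, but it was set with earlier results of these data known. The rule found 93 of 26257 gene symbols. The RNA came from HCT-116, a widely used human cell line grown out of a colorectal carcinoma. One group was treated with lysophosphatidic acid (LPA), a signalling phospholipid that acts on G protein-coupled receptors, at 10 µM for 24 h after serum starvation, and the other was untreated. Whether the untreated cells were also starved of serum is not given in the sources used here. Each group is 1 library, and both titles carry the number 3, so every difference below is between 2 libraries, has no replicate check and has no p-value.

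Oxidative phosphorylation is the process by which mitochondria turn the oxidation of NADH and succinate into ATP. Complex I (NADH dehydrogenase) and complex II (succinate dehydrogenase) pass electrons to ubiquinone, complex III passes them to cytochrome c, complex IV (cytochrome c oxidase) passes them to oxygen, and complex V (ATP synthase) makes ATP from the resulting proton gradient. Apart from complex II, each complex also holds subunits encoded in the mitochondrial genome, which are not analysed here. Colorectal carcinoma cells use both glycolysis and respiration.

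Most of these genes had close to the same level in both libraries, and so did most expressed genes. Of the 93 members, 82 had a mean of at least 1 FPKM over both libraries (fragments scaled to transcript length and to sequencing depth, summed over the isoforms of a gene) and are called measured. Their log2 ratios, log2((LPA FPKM + 1)/(control FPKM + 1)), lay between -0.97 and 0.44 with a median of -0.07, against a median of 0.0009 over all 11688 symbols that reached the same level. The added 1 understates differences of genes at low levels. No member was at least 1.5-fold higher in LPA-treated cells, against 1.45% of all measured symbols, and 2 were at least 1.5-fold lower, NDUFS1 and SDHAF4, against 1.54%. At 1.2-fold, 6 members (7.32%) were higher, against 12.6% of all symbols, and 14 (17.1%) were lower, against 14.5%. That makes 20 (24.4%) in either direction, against 27.1%. Within 1.2-fold lay 75.6% of measured members and 72.9% of all symbols, which is near the background. There were 31 members above 0 and 51 below, or 37.8% above 0 against 50.2% of all symbols. In bulk RNA, fewer cells with a transcript and less of it per cell cannot be told apart.

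The members are abundant transcripts. Their FPKM summed to 20927 in the LPA library and 21426 in the control library, or 2.95% of all FPKM in the LPA library and 2.99% in the control library. The median measured member had 146 FPKM in the LPA library and 151 FPKM in the control library, where the median over all measured symbols was 8.88 FPKM in the LPA library and 9.11 FPKM in the control library. Levels between genes are on the FPKM scale, which is per length. Complex IV genes were the most abundant on this scale, with a median of 485 FPKM in the LPA library and 502 FPKM in the control library, and complex II genes with their assembly factors the least.

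**Figure D1:**
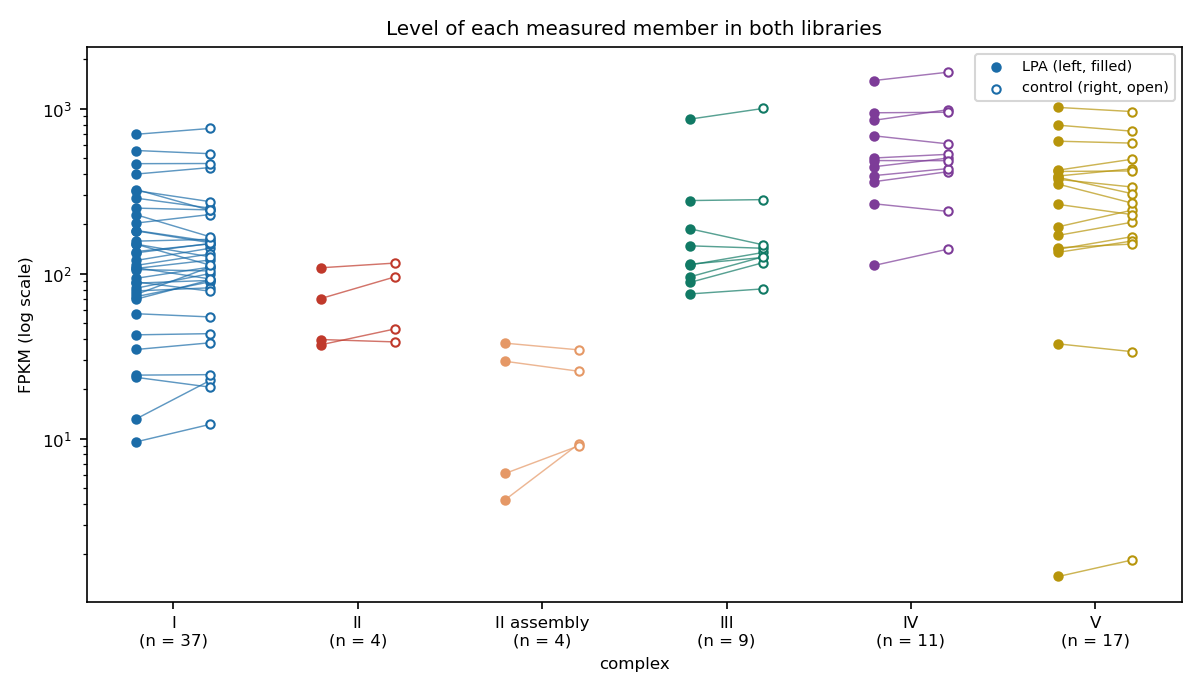
FPKM (log scale) of the 82 measured members by complex, with the LPA library on the left (filled points) and the control library on the right (open points), 1 library each, and a line for each gene. Lines are close to level for most genes, and the steepest belong to NDUFS1 (complex I) and SDHAF4 (complex II assembly).

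The libraries themselves were alike in estimated depth. The lowest values of long single-isoform genes put the depth at about 15700000 fragments in the LPA library and 16700000 in the control library. FPKM summed to 709125 in the LPA library and 717768 in the control library. FPKM is already scaled to depth, so these sums do not measure library size. Of 7 colon epithelial markers, 6 were measured, and the summed level of the list was 3762 FPKM in the LPA library and 2880 FPKM in the control library; VIL1 was listed at 0 in both. The gap lay in the keratin genes KRT18 (log2 ratio 0.74), KRT19 (0.36) and KRT8 (0.32), while EPCAM (0.02), CDH1 (0.12) and CDX2 (0.14) were within 1.2-fold. Fibroblast markers summed to 4.32 FPKM in the LPA library and 5.78 FPKM in the control library, with 1 of 6 measured and COL1A2, DCN and LUM at 0 in both. Immune markers summed to 3.34 FPKM in the LPA library and 3.09 FPKM in the control library, with 1 of 6 measured and PTPRC at 0 in both, and of 4 endothelial markers 0 were measured.

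Complex I oxidises NADH and is the largest of the complexes. Of its 37 measured NDUF genes, 15 had a log2 ratio above 0 and 22 below, and the median was -0.04. Their summed FPKM was 6233 in LPA-treated cells and 6177 in control cells, a ratio of 1.01. The 7 nuclear core subunits, which include those that carry the flavin and the iron-sulfur clusters, had a median of -0.02 with a range from -0.73 to 0.42, and the 29 other subunits had a median of -0.04. At 1.2-fold, 3 complex I genes were higher, or 8.11% against 12.6% of all symbols, and 6 were lower, or 16.2% against 14.5%, which is near the background.

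NDUFS1 encodes the largest core subunit, which carries iron-sulfur clusters in the arm that binds NADH. It lies on chromosome 2 (206123079 to 206159519, hg38, as the locus of the deposited table). Its level was 13.2 FPKM in LPA-treated cells and 22.5 FPKM in control cells, a log2 ratio of -0.73, the lowest of complex I. The difference was spread unevenly over its isoforms. The full-length form of 3473 nt had 8.92 FPKM in the LPA library (deposited bounds 5.92 to 11.9) and 18.3 FPKM in the control library (12.7 to 23.9), and these bounds do not overlap. A form of 3196 nt was instead higher, with 2.98 FPKM in the LPA library (1.09 to 4.87) and 0.00895 FPKM in the control library (0 to 0.144), also with separate bounds. The other measured form, of 3381 nt, had 1.28 FPKM in the LPA library (0.110 to 2.45) and 4.18 FPKM in the control library (1.46 to 6.90), and its bounds overlap. By share of the gene, the full-length form held 67.7% in LPA-treated cells and 81.4% in control cells, and the 3196 nt form held 22.6% in LPA-treated cells and 0.0398% in control cells.

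In GENCODE's GRCh38 annotation, the 3196 nt form lacks exons 3, 4 and 5 of the 19 exons of the full-length form, 277 bases of coding sequence between 206149020 and 206152510, and the 3381 nt form lacks exon 3 alone, 92 bases. The join after exon 2 is what tells the forms apart, and its transcript sequence is shown for each, with the last 15 bases of exon 2 in lower case and the first 15 bases of the next exon in capitals.
NDUFS1 full length, exon 2 to exon 3: ctcctaaaggatgtgTTCGAACAACTGCCA
NDUFS1 without exons 3 to 5, exon 2 to exon 6: ctcctaaaggatgtgGGAAGGTGTGATGGA
NDUFS1 without exon 3, exon 2 to exon 4: ctcctaaaggatgtgGCTTGTGAGAAGGTT
The software that made the table estimates how fragments divide among such forms, so the sum over isoforms rests on less modelling than each form does.

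At the other end of complex I, NDUFA3, an accessory subunit, had 227 FPKM in LPA-treated cells and 167 FPKM in control cells (log2 ratio 0.44), the highest ratio of any measured member. It lies on chromosome 19 (54102852 to 54106974). NDUFA11, an accessory subunit of the membrane arm, had 323 FPKM in LPA-treated cells and 242 FPKM in control cells (0.42). NDUFS8, a core subunit with iron-sulfur clusters, had 151 FPKM in LPA-treated cells and 113 FPKM in control cells (0.42), and NDUFB11, another membrane-arm subunit, had 151 FPKM in LPA-treated cells and 126 FPKM in control cells (0.25). These were the 4 highest of complex I, and the deposited bounds of the leading isoform of each overlapped between the libraries. Of the lower genes, NDUFB6, an accessory subunit of the membrane arm in a locus shared with TOPORS, had 70.1 FPKM in LPA-treated cells and 91.6 FPKM in control cells (-0.38), and NDUFA5, an accessory subunit of the arm in the matrix, had 9.55 FPKM in LPA-treated cells and 12.2 FPKM in control cells (-0.32). The most abundant gene, NDUFS5, which encodes an accessory subunit on the outer face of the membrane arm, had 700.05 FPKM in LPA-treated cells and 759.6 FPKM in control cells (-0.12).

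**Figure D2:**
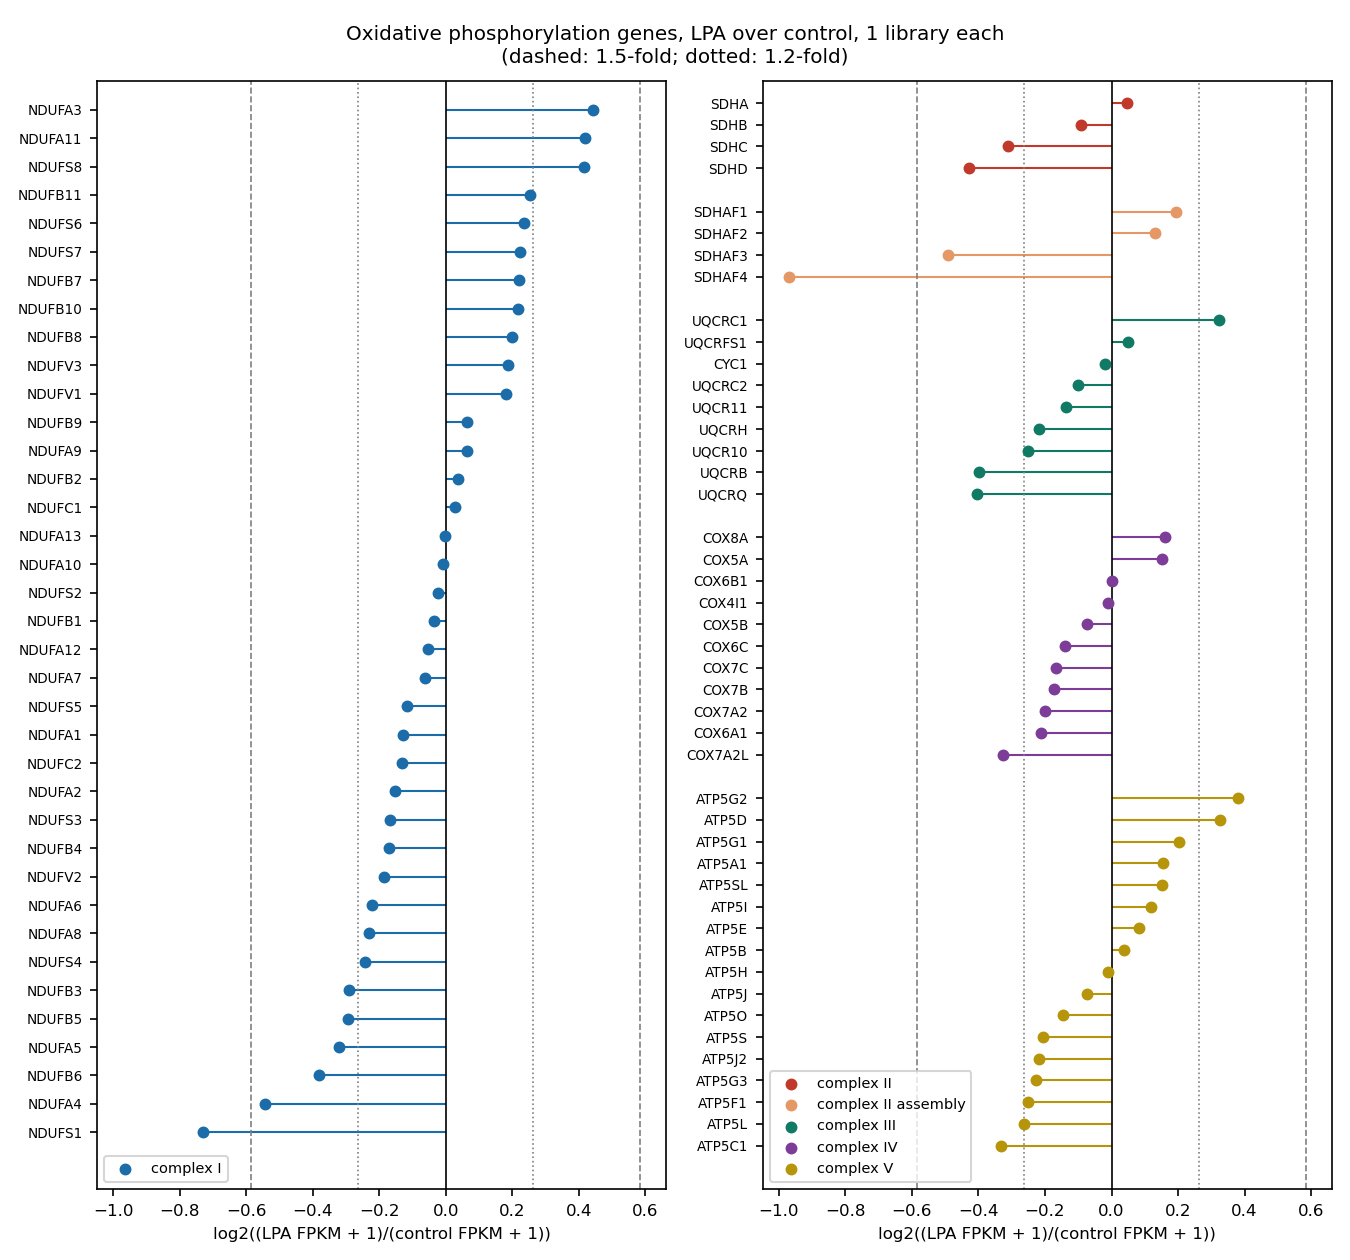
Log2 ratio of LPA over control FPKM (with 1 added to both) for each of the 82 measured members, 1 library each, grouped by complex. Dashed lines mark 1.5-fold and dotted lines 1.2-fold; only NDUFS1 and SDHAF4 lie beyond a dashed line.

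NDUFA4 carries a complex I name but is known as a component of cytochrome c oxidase. It had 74.9 FPKM in LPA-treated cells (bounds 54.5 to 95.3) and 109.7 FPKM in control cells (79.8 to 140), a log2 ratio of -0.54, lower than that of any other measured member except SDHAF4 and NDUFS1. The bounds overlap. Its paralogue NDUFA4L2, known as a hypoxia-induced gene, was low in both libraries, at 0.482 FPKM in LPA-treated cells and 0.849 FPKM in control cells, and shares its locus with SHMT2. With NDUFA4 counted under complex IV, the median log2 ratio was -0.03 for complex I and -0.15 for complex IV.

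Complex II, the one complex encoded wholly in the nucleus, oxidises succinate in the tricarboxylic acid cycle. The ratios of its subunits were not alike. SDHA, the flavoprotein that binds succinate, had 39.8 FPKM in LPA-treated cells and 38.5 FPKM in control cells (log2 ratio 0.05), and SDHB, the iron-sulfur subunit, had 109 FPKM in LPA-treated cells and 116 FPKM in control cells (-0.09). Both membrane anchors were lower: SDHC had 37.0 FPKM in LPA-treated cells and 46.1 FPKM in control cells (-0.31), in a locus shared with CFAP126, and SDHD had 70.6 FPKM in LPA-treated cells and 95.4 FPKM in control cells (-0.43). The deposited bounds of the leading isoform overlapped between the libraries for both anchors. The summed FPKM of the 4 subunits was 256 in LPA-treated cells and 296 in control cells, a ratio of 0.865, the lowest of the 5 complexes. GC content was 55.1% for SDHA, 48.6% for SDHB, 42.6% for SDHC and 41.0% for SDHD. That is the order of the ratios, so place in the complex and GC content cannot be told apart. With the ratios adjusted for GC content, SDHA had a log2 ratio of -0.03, SDHB -0.13, SDHC -0.22 and SDHD -0.29, so the gap between the subunits was smaller and SDHC was no longer past 1.2-fold.

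Of the 4 complex II assembly factors, 2 were lower past 1.2-fold, against 14.5% of all symbols, and the other 2 were within it. A set of 4 genes is too small to read as a share. SDHAF4, which binds the flavin-loaded SDHA before it joins SDHB, had 4.26 FPKM in LPA-treated cells (bounds 1.90 to 6.61) and 9.30 FPKM in control cells (5.25 to 13.3), a log2 ratio of -0.97, the lowest of all measured members. It lies on chromosome 6 (70566922 to 70588903), has a single isoform of 525 nt, and its bounds overlap. SDHAF3, a factor that helps SDHB receive its iron-sulfur clusters, had 6.14 FPKM in LPA-treated cells (4.10 to 8.19) and 9.04 FPKM in control cells (6.23 to 11.9), a log2 ratio of -0.49. Its bounds overlap too. SDHAF2, which attaches the flavin to SDHA, had 37.9 FPKM in LPA-treated cells and 34.5 FPKM in control cells (0.13), and SDHAF1, another factor for the iron-sulfur clusters of SDHB, had 29.4 FPKM in LPA-treated cells and 25.6 FPKM in control cells (0.19). The pair with low levels was lower in the LPA library and the pair with higher levels was slightly higher there.

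Complex III transfers electrons from ubiquinol to cytochrome c. Of its 9 measured genes, 7 had a log2 ratio below 0, with a median of -0.14, and the summed FPKM was 1963 in LPA-treated cells and 2162 in control cells (ratio 0.908). UQCRC1, a core subunit, stood at the upper end with 187 FPKM in LPA-treated cells and 149 FPKM in control cells (0.32). The redox-active subunits were near level: the Rieske iron-sulfur protein gene UQCRFS1 had 147 FPKM in LPA-treated cells and 142 FPKM in control cells (0.05), and the cytochrome c1 gene CYC1 had 277 FPKM in LPA-treated cells and 281 FPKM in control cells (-0.02). Small accessory subunits made up the lower end. UQCRQ had 95.5 FPKM in LPA-treated cells and 127 FPKM in control cells (-0.40), UQCRB had 88.4 FPKM in LPA-treated cells and 116.7 FPKM in control cells (-0.40), and UQCR10 had 113 FPKM in LPA-treated cells and 134 FPKM in control cells (-0.25). UQCRQ shares its locus with GDF9. The hinge protein gene UQCRH was the most abundant, with 864 FPKM in LPA-treated cells and 1005 FPKM in control cells (-0.22).

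Complex IV reduces oxygen to water. Of its 11 measured COX genes, 8 had a log2 ratio below 0, in a narrow range from -0.33 to 0.16 with a median of -0.14, and their summed FPKM was 6529 in LPA-treated cells and 6960 in control cells (ratio 0.938). COX7C, a small membrane subunit, was the most abundant of all members, with 1483 FPKM in LPA-treated cells and 1665 FPKM in control cells (-0.17). The lowest ratio belonged to COX7A2L, which is known for joining complexes III and IV into supercomplexes, with 112 FPKM in LPA-treated cells and 141 FPKM in control cells (-0.33), the single COX gene past 1.2-fold. COX8A had 685 FPKM in LPA-treated cells and 612 FPKM in control cells (0.16), and COX5A, a subunit on the matrix side, had 265 FPKM in LPA-treated cells and 238 FPKM in control cells (0.15).

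Several complex IV subunits exist as a common form and a form used in particular tissues, and the common form carried nearly all of the signal in both libraries. COX4I1 had 945 FPKM in LPA-treated cells and 952 FPKM in control cells, while COX4I2, known as the form of lung and hypoxic cells, was listed at 0 in both. COX6A1 had 851 FPKM in LPA-treated cells and 986 FPKM in control cells (-0.21), and its heart and muscle counterpart COX6A2 was listed at 0 in both. COX7A2 had 361 FPKM in LPA-treated cells and 415 FPKM in control cells (-0.20), and the muscle form COX7A1 was listed at 0 in both. A listed 0 need not mean absence. COX6B1 had 485 FPKM in LPA-treated cells and 484 FPKM in control cells, against 0.0888 FPKM in LPA-treated cells and 0.569 FPKM in control cells for the testis form COX6B2. COX7B had 445 FPKM in LPA-treated cells and 502 FPKM in control cells (-0.17), against a listed 0 in LPA-treated cells and 0.163 FPKM in control cells for COX7B2, and COX8C was at 0.210 FPKM in LPA-treated cells and 0.191 FPKM in control cells. Each of these tissue-restricted forms was below 1 FPKM in both libraries. Without a filter on low levels the complex IV median was -0.07, since the forms listed at 0 then count as level.

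Complex V is the ATP synthase, with a catalytic head in the matrix and a rotor and stalk in the membrane. Its 17 measured ATP5 genes were split, 8 above 0 and 9 below, with a median log2 ratio of -0.01 (0.01 among genes with a mean of at least 5 FPKM). The summed FPKM was 5869 in LPA-treated cells and 5753 in control cells, a ratio of 1.02. In the catalytic head and its central stalk, ATP5C1, which encodes the gamma subunit, was lowest with 192 FPKM in LPA-treated cells and 243 FPKM in control cells (-0.33), and ATP5D, the delta subunit, had 383 FPKM in LPA-treated cells and 305 FPKM in control cells (0.33). ATP5E, the epsilon subunit of the same stalk, was the most abundant gene of the complex, with 1018 FPKM in LPA-treated cells and 961 FPKM in control cells (0.08). Of the membrane part, ATP5L (subunit g) had 171 FPKM in LPA-treated cells and 205 FPKM in control cells (-0.26), and ATP5F1 (subunit b of the outer stalk) had 141 FPKM in LPA-treated cells and 168 FPKM in control cells (-0.25). ATP5E, ATP5L and ATP5F1 share loci with other genes, so some of their fragments may belong to neighbours.

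The rotor subunit c is encoded by 3 genes, ATP5G1, ATP5G2 and ATP5G3 (ATP5MC1, ATP5MC2 and ATP5MC3 in current RefSeq), which are known to give the same mature protein from different precursors. They did not differ alike between the libraries. ATP5G2 had 349 FPKM in LPA-treated cells and 268 FPKM in control cells (log2 ratio 0.38, the highest of complex V). ATP5G1 had 263 FPKM in LPA-treated cells and 228 FPKM in control cells (0.20). ATP5G3 had 135 FPKM in LPA-treated cells and 158 FPKM in control cells (-0.23). Together they held 746 FPKM in LPA-treated cells and 653 FPKM in control cells, a log2 ratio of 0.19, and the share of ATP5G3 was 18.1% in LPA-treated cells and 24.1% in control cells. The bounds of the leading isoform overlapped for all 3 genes. GC content was 58.2% for ATP5G2, 53.8% for ATP5G1 and 41.0% for ATP5G3. That is the order of the ratios, so gene and GC content cannot be told apart. With the ratios adjusted for GC content, ATP5G2 had a log2 ratio of 0.29, ATP5G1 0.12 and ATP5G3 -0.09.

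Reads of these genes can be told apart by sequence even where the protein is shared. Over the last 75 codons of their coding sequence, ATP5G1 and ATP5G2 were identical at 88.9% of bases, and ATP5G3 was identical to each of them at 81.3%. Of the 52 positions that differed between any of the genes, 47 were the last base of a codon. The last 30 codons are shown from GENCODE's GRCh38 transcripts, 5′ to 3′, with the positions that differ in any of the genes in capitals.
ATP5G1 (chromosome 17): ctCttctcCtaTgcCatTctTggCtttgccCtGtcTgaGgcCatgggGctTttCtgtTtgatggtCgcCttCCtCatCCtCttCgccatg
ATP5G2 (chromosome 12): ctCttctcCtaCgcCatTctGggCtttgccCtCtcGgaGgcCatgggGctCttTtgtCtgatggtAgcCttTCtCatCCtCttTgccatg
ATP5G3 (chromosome 2): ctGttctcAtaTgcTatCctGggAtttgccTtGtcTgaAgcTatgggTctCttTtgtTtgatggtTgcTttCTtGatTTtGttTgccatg

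At the level of isoforms, 132 of the 209 member isoforms had a mean of at least 1 FPKM, and 4 of them had bounds that did not overlap between the libraries, against 4.61% of all isoforms at that level. They came from 2 genes, NDUFS1 and ATP5SL. ATP5SL carries an ATP synthase name, but current RefSeq lists it as DMAC2, a gene named for the assembly of the distal membrane arm of complex I. Its gene total was 37.5 FPKM in LPA-treated cells and 33.6 FPKM in control cells (0.15), but the form of 1726 nt had 9.94 FPKM in the LPA library (bounds 4.52 to 15.4) and 25.1 FPKM in the control library (17.1 to 33.1). A form of 1645 nt had 14.3 FPKM in the LPA library (7.78 to 20.9) and 0.00986 FPKM in the control library (0 to 0.175). In GENCODE's annotation the second form lacks the coding exon 3 of the first, 81 bases on chromosome 19 (41436392 to 41436472). In both genes a form without part of the coding exons was higher in the LPA library and the form it was set against was lower, with separate bounds. The forms without an exon did not share a direction, since the 3381 nt form of NDUFS1 was lower in the LPA library. Both genes are singled out by their bounds, after the values were seen.

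**Figure D3:**
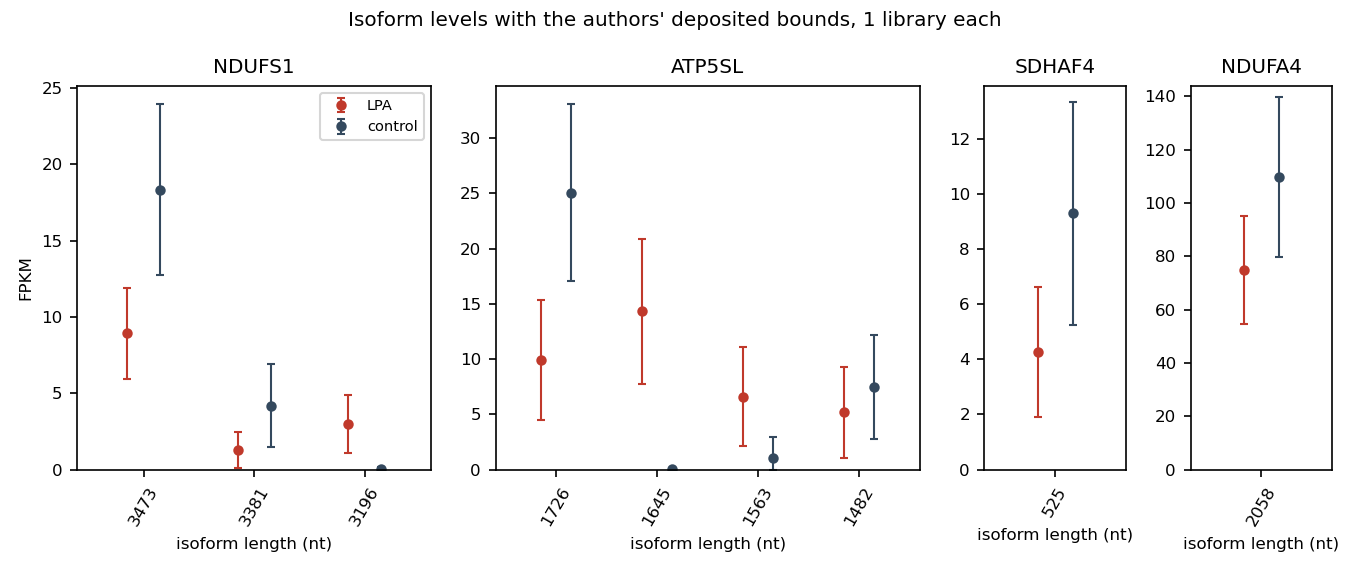
FPKM of the measured isoforms of NDUFS1, ATP5SL, SDHAF4 and NDUFA4, named by their length in nt, in the LPA library (left, red) and the control library (right, dark), with the authors' deposited bounds as bars. Bounds are separate for the 3473 and 3196 nt forms of NDUFS1 and the 1726 and 1645 nt forms of ATP5SL, and overlap for SDHAF4 and NDUFA4.

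The log2 ratio of a member went with the GC content of its transcript. Over the 81 measured members with a GC value, Pearson's r was 0.70 and Spearman's rho 0.74, and over the 11422 of all measured symbols with one the values were 0.21 and 0.30. These are across genes of the same pair of libraries, which share depth and preparation and are not independent replicates. The 6 members at least 1.2-fold higher had a median GC content of 60.8%, with a range from 56.4% to 69.3%, and the 14 at least 1.2-fold lower had a median of 42.4%, with a range from 36.4% to 53.1%. Of the 40 members above the members' median GC content of 49.8%, 24 had a log2 ratio above 0, and of the 41 at or below it, 7 did. UQCRQ, at 53.1% GC, was the most GC-rich of the lower genes. Across all measured symbols the same split gave medians of 0.07 above and -0.07 at or below that GC content. Of those symbols, 3658 of 5890 above that GC content had a log2 ratio above 0, and 2079 of 5532 at or below it did. The members' count above that GC content was thus near the background, and their count at or below it was under the background.

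With each gene's ratio taken relative to the median of all symbols of like GC content, the members' median was -0.09, with 26 above 0 and 55 below. NDUFS1 then had a log2 ratio of -0.64, SDHAF4 -0.93, NDUFA3 0.35 and ATP5G2 0.29, and both genes past 1.5-fold stayed past it. At 1.2-fold, 5 of the 6 higher members stayed past the threshold, and UQCRC1, at 0.26, did not. Of the 14 lower members 8 stayed, and the 6 that did not were NDUFA5 (-0.11), NDUFB3 (-0.25), NDUFB5 (-0.16), NDUFB6 (-0.25), SDHC (-0.22) and UQCRB (-0.23). Another 5 were lower past 1.2-fold after the adjustment alone, namely COX6A1 (-0.31), NDUFA8 (-0.32), ATP5J2 (-0.31), UQCR10 (-0.29) and ATP5S (-0.27). After the adjustment 5 of 81 members were higher and 13 lower at 1.2-fold, against 10.9% and 12.3% of all 11422 symbols adjusted alike. At 1.5-fold 2 members were lower, against 1.22% of those symbols. Spearman's rho with GC content was 0.51 among the members after this step and 0.01 among all symbols. Chromosome 19, a GC-rich chromosome, holds 12 of the measured members, among them NDUFA3, NDUFA11 and ATP5D, and 9 of the 12 had a log2 ratio above 0 (median 0.17). The 70 members on other chromosomes had a median of -0.13. All 849 measured symbols on chromosome 19 had a median of 0.04, with 480 of them above 0. Transcript length and level went less closely with the ratio, with rho of -0.25 for length and 0.26 for mean FPKM over the 82 members. What part GC content in the preparation of either library has in these differences was not tested.

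**Figure D4:**
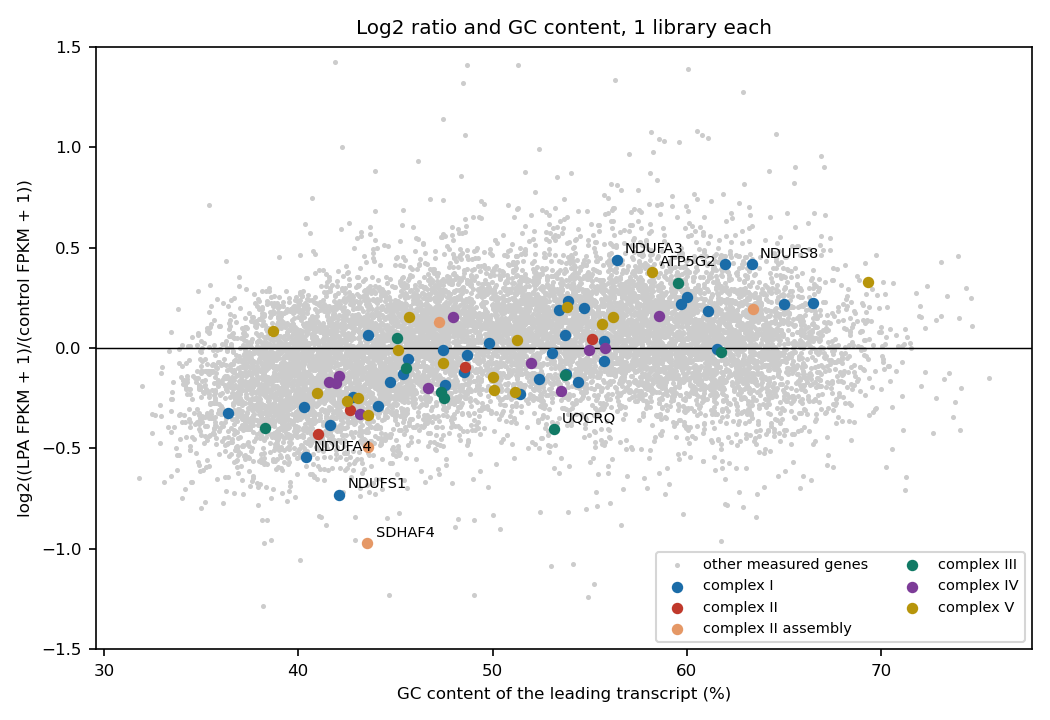
Log2 ratio of LPA over control FPKM against the GC content of the leading transcript, for 81 members coloured by complex and for the other measured genes in grey (36 genes beyond 1.5 on the log2 scale are not drawn). Members below 45% GC lie mostly under 0 and those above 56% mostly over 0, and SDHAF4 and NDUFS1 lie lowest among the members.

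Promoters of respiratory chain genes are known for sites of NRF1 and of ETS-family factors such as GABP. Among 68 measured members with a promoter of 300 bases in RefSeq (250 before to 50 after the start, first listed start of each gene), 17 held the NRF1 motif (GCGCA, any base, then GCGC) on either strand, or 25%, against 8.58% of 15843 promoters of protein-coding genes. The ETS motif CCGGAAG was in 21, or 30.9%, against 14.2%. The members were limited to genes measured in these cells and the other promoters were not, so the sets are unlike. Neither motif contains the other. Members with the NRF1 motif had a median log2 ratio of -0.14 and the 51 without it -0.04, and for the ETS motif the medians were -0.09 and, for the 47 without it, -0.01. A match of letters is a description and not a bound site. The sequence around the start is shown for SDHAF4, the member with the lowest ratio, and NDUFA3, the member with the highest, 5′ to 3′ on the gene's strand (RefSeq, GRCh38.p14), with motif matches in capitals. It stops at the start RefSeq lists, or at most 30 bases past the first start in GENCODE's annotation where that comes earlier, and holds 1 NRF1 match in each gene. The stretch for NDUFA3 ends at 54102757, before the start of its deposited locus at 54102852. The start RefSeq lists first for NDUFS1 lies inside exon 1 of the full-length form in GENCODE, so its promoter is not shown. The motif shares above used the starts RefSeq lists first without such adjustment, so some of those windows may be misplaced.
SDHAF4 (chr6:70566680-70566929, plus strand): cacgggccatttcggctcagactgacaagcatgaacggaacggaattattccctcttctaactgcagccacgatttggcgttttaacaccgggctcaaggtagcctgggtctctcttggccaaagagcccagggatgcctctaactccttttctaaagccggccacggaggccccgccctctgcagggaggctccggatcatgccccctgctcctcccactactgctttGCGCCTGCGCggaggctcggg
NDUFA3 (chr19:54102605-54102757, plus strand): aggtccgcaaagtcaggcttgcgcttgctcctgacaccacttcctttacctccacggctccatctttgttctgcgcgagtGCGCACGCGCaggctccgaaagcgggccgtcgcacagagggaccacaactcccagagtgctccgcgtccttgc

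Genes that work with the complexes also differed little. Of 94 genes in 9 lists of assembly factors, electron carriers, tricarboxylic acid cycle enzymes, regulators, chaperones and proteases, 92 were measured and 0 were past 1.5-fold in either direction, against 2.99% of all symbols. At 1.2-fold, 8 were higher and 12 lower, against 12.6% and 14.5%. The median log2 ratio was -0.03 for the 13 complex I assembly factors (1 higher, 1 lower at 1.2-fold), 0.10 for the 6 of complex III (1 higher), 0.07 for the 21 of complex IV (1 higher, 3 lower) and -0.08 for the 4 of complex V including its inhibitor (none either way). The 3 lower complex IV factors, named after their values were seen, were COX11, which delivers copper, with 22.3 FPKM in LPA-treated cells and 32.8 FPKM in control cells, COX20, a chaperone for a subunit made in the mitochondrion, with 6.69 FPKM in LPA-treated cells and 9.99 FPKM in control cells, and COA5, an assembly factor, with 9.09 FPKM in LPA-treated cells and 13.4 FPKM in control cells. The 3 subunits that the name rule leaves out, NDUFAB1, USMG5 and C14orf2, had a median of -0.04.

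Among electron carriers and enzymes of ubiquinone synthesis the median was -0.02 (2 of 10 lower at 1.2-fold), and cytochrome c itself, CYCS, had 47.0 FPKM in LPA-treated cells and 49.0 FPKM in control cells (-0.06). Tricarboxylic acid cycle and pyruvate dehydrogenase genes had a median of -0.06, with 1 of 17 higher and 5 lower at 1.2-fold. Mitochondrial chaperones and proteases had a median of 0.15, with 3 of 8 higher. Over all symbols, 12.6% were higher and 14.5% lower at 1.2-fold, and these lists are too short to read as shares. Of the regulators of mitochondrial biogenesis, 10 of 12 were measured, with a median of -0.05 (1 higher, 1 lower). TFAM, which packages mitochondrial DNA and helps to start its transcription, had 8.95 FPKM in LPA-treated cells and 11.6 FPKM in control cells (-0.34), and NRF1 had 6.31 FPKM in LPA-treated cells and 7.46 FPKM in control cells (-0.21). The coactivator gene PPARGC1A was near 0 in both libraries, at 0.0100 FPKM in LPA-treated cells and 0.00990 FPKM in control cells.

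The remaining 11 members were below a mean of 1 FPKM: COX4I2, COX6A2, COX6B2, COX7A1, COX7B2, COX8C and NDUFA4L2, given above, and ATP5L2, ATP5EP2, UQCRBP1 and UQCRHL, which are close copies of ATP5L, ATP5E, UQCRB and UQCRH. ATP5L2 was listed at 0 in both libraries, ATP5EP2 had 0.306 FPKM in the LPA library and 0.271 FPKM in the control library, UQCRBP1 0.0997 FPKM in LPA-treated cells and 0.0993 FPKM in control cells, and UQCRHL 0.340 FPKM in the LPA library and a listed 0 in the control library. Reads of such copies and of their parent genes can be assigned to either, so these values are uncertain. In all, 23 members lie in a locus that holds another gene symbol, and 3 members (NDUFA3, NDUFA6 and COX8C) are listed at more than 1 locus because of alternate chromosome copies, whose values were 0.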

How the data were processed

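The libraries were made from Trizol-isolated, poly-A selected RNA, per the labels' protocols. The kit named there, TruSeq V2, keeps no strand, so overlapping genes on opposite strands cannot be told apart. Per the submitters' processing notes, bcl2fastq 2.16.0.10, TopHat2 2.0.12, Cufflinks and Cuffdiff 2.2.0 were used with hg38; no source used here gives their settings or the scaling between libraries. Per the file headers, the deposited values are FPKM of 63236 isoforms with a lower and an upper bound, whose level is not stated, and a status. All 209 member isoforms have the status OK; 16 isoforms with the status HIDATA, none of them a member, were left out, which the plan did not foresee.

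Isoform FPKM were summed per symbol (Python 3.11.15, pandas 2.3.3), and log2 ratios used a pseudocount of 1. With 1 library per group no test was possible, and counts past 1.5-fold and 1.2-fold are given beside those of all 11688 symbols with a mean of at least 1 FPKM. Depth was estimated from the smallest steps of FPKM multiplied by length. The calculation was run on simulated libraries with known changes larger than most here, a single transcript length and no spread between cultures. That run checks the code and does not measure how reliable the differences here are. GC content came from GENCODE v29 transcripts matched by RefSeq accession. Members were matched to current RefSeq symbols (all 93). The members and lists were chosen with earlier results of these data known. Named members are the 3 highest and 3 lowest log2 ratios of each complex (4 and 4 for complex I) at a mean of at least 5 FPKM, those past 1.5-fold, the most abundant of each complex, all paralogous groups and all SDH genes. Alternatives were other pseudocounts, filters, leading isoforms, class codes, centring and GC adjustment.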

Additional observations from a re-analysis of the deposited data

How the results depend on the processing

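No paired analysis was possible because each group has 1 library. The count of members at least 1.5-fold higher was 0 in all 10 alternatives run (pseudocounts of 0.1 and 5, the leading isoform, RefSeq-matching isoforms alone, centring, no filter, a mean of at least 5 FPKM, and 3 added after seeing the data: GC adjustment, HIDATA isoforms at 0, and complexes regrouped). The count at least 1.5-fold lower was 2 in each except with the leading isoform for each gene, where it was 3, since the leading form of ATP5SL alone was then counted. The share of all symbols at least 1.5-fold lower was 1.54% in the main analysis, 0.351% with a pseudocount of 5, 3.18% with 0.1 and 4.24% by leading isoforms, so the members' count does not stand in 1 relation to the background. At 1.2-fold the counts ranged from 5 to 7 higher and from 13 to 17 lower. The shares of all symbols at 1.2-fold were 6.77% higher and 6.80% lower with a pseudocount of 5, where 6 and 13 of 82 members were called, so that the lower count was then above the background, and 17.3% and 18.6% by leading isoforms, where 6 and 17 were. The members' median log2 ratio ranged from -0.09 to -0.05, and no complex median moved by 0.1 or more; that of complex V, near 0, was 0.01 at a mean of at least 5 FPKM. Isoforms with separate bounds numbered 3 at a mean of at least 5 FPKM. Of the values for single named genes, 21 moved by 0.1 or more and 308 did not: NDUFS1 had -0.60 with a pseudocount of 5 and -0.96 by its leading isoform, and SDHAF4 -1.11 with a pseudocount of 0.1 and -0.63 with 5. GC adjustment turned the sign of SDHA and COX6B1, both near 0. Depth limits the low genes most, and without replicates the spread between cultures is unknown.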
